A study of Mus musculus with 74 samples.

Results

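Reactive astrocyte genes are transcripts that astrocytes raise when the brain is injured, inflamed or loses myelin. The set described here holds 8 of the 49912 genes in the deposited count table, chosen by gene symbol: Gfap, Vim, Serpina3n, Cd44, Osmr, Timp1, S1pr3 and Steap4. All 8 were found in the table. The study fed mice chow with 0.2% cuprizone, or control chow, for 5 weeks, named acute demyelination in the labels, or for 12 weeks, named chronic. Whole brains were dissociated after perfusion, and living cells were sorted into Cd11b-positive cells (the microglia fraction) and all other cells (the nonmicroglia fraction), both from each of 37 mice. RNA was read with a 3' tag method for small inputs, which gave 74 libraries. The question for these genes was how they respond to cuprizone, mainly outside microglia, and whether that response changes with Trem2, which encodes a lipid-sensing receptor of microglia.

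On cuprizone for 5 weeks the groups were Trem2 -/- (knockout), Trem2 +/- (heterozygote) and Trem2 +/+ (wild type), with 3 mice each, against 3 mice of each genotype on control chow. On cuprizone for 12 weeks there were 3 knockouts, 4 heterozygotes and 3 wild types, against 3 knockouts, 4 heterozygotes and 2 wild types on control chow. Each group had 1 male, and its other mice were female. The sources used here give neither the knockout allele nor the age and strain of the mice. Mice at 12 weeks of feeding were compared with others at 5 weeks, so that time on the diet and age cannot be told apart.

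Astrocytes support neurons and the blood-brain barrier, and they answer damage by growing their cytoskeleton, secreting protease inhibitors and raising receptors for cytokines, matrix and lipids. Gfap and Vim encode intermediate filament proteins. Serpina3n encodes a secreted serine protease inhibitor, and Timp1 a secreted inhibitor of metalloproteinases. Cd44 encodes the receptor for hyaluronan, Osmr the receptor chain for oncostatin M, which signals through JAK and STAT3, and S1pr3 a receptor for sphingosine 1-phosphate. Steap4 encodes a membrane reductase of iron and copper. None of the 8 is made by astrocytes alone: endothelial cells, fibroblasts, ependymal cells and activated microglia can make several of them.

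In the GENCODE annotation of the GRCm38.p6 assembly Gfap (ENSMUSG00000020932.14) lies on chromosome 11 at 102887336 to 102900912, and Vim (ENSMUSG00000026728.9) on chromosome 2 at 13573927 to 13582826. Serpina3n (ENSMUSG00000021091.8) lies on chromosome 12 at 104406729 to 104414329, and Timp1 (ENSMUSG00000001131.11) on chromosome X at 20870166 to 20874735. Cd44 (ENSMUSG00000005087.17) lies on chromosome 2 at 102811141 to 102901665, Osmr (ENSMUSG00000022146.12) on chromosome 15 at 6813577 to 6874969, S1pr3 (ENSMUSG00000067586.4) on chromosome 13 at 51408639 to 51422797 and Steap4 (ENSMUSG00000012428.9) on chromosome 5 at 7960457 to 7982213. Timp1 lies inside Syn1 on the opposite strand, and S1pr3 overlaps the noncoding gene Gm32834 on the opposite strand. Syn1 had 534 counts and Gm32834 had 38 over the nonmicroglia libraries. The sources used here do not say whether strand was used in the counting, so reads of Timp1 and S1pr3 may be mixed with those of their partners.

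STAT3 acts below the oncostatin M receptor, so the 8 promoters were searched for its core letters. RefSeq held a window from 250 bases before to 50 bases after the start site for all 8 genes (GRCm38.p6). The letters TTCNNNGAA, the core of the STAT motif, were found in 2 of 8 windows (Gfap and Steap4), against 8.30% of 32851 mouse windows of the same length. The AP-1 letters TGANTCA were found in 1 of 8 windows (Osmr), against 7.81%, and the C/EBP letters TTGCNNAA in 1 of 8 (Steap4), against 10.8%. STAT and AP-1 letters read the same on both strands, the C/EBP letters were searched on both strands, and no matches overlapped. The Gfap and Steap4 windows are printed 5′ to 3′ on the strand of the gene because they carry the STAT letters, and that of Serpina3n because its level differed most with diet in the 12-week comparison; capitals mark the matches. The Gfap match begins 2 bases before the start site, and the Steap4 STAT match 116 bases before it. The RefSeq start of Gfap lies inside the span that GENCODE gives the gene. A match is a description of the letters, not of binding.
Gfap, minus strand, chr11:102897151-102897450: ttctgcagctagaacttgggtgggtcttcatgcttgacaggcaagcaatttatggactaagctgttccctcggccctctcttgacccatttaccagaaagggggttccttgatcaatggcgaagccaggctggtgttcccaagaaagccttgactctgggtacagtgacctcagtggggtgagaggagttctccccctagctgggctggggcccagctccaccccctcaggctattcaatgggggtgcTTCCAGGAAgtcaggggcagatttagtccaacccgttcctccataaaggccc
Steap4, plus strand, chr5:7960222-7960521: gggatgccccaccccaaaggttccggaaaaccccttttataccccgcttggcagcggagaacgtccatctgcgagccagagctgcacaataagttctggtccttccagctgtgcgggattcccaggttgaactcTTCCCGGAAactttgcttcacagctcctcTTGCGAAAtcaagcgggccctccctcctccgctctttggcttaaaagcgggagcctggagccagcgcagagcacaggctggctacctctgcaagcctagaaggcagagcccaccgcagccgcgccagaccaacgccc
Serpina3n, plus strand, chr12:104406458-104406757: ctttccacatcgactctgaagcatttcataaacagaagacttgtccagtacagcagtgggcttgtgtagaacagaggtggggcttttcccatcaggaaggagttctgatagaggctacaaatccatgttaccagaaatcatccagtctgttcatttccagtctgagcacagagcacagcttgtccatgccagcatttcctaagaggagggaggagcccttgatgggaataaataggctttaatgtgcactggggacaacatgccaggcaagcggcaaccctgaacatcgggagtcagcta

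Levels are CPM, a gene's counts scaled to a common library total. Nonmicroglia libraries held 1255465 to 3441041 counts and microglia libraries 1043961 to 3945694, so that 3 counts, the limit a count of 0 allows, equal 0.872 to 2.39 CPM in nonmicroglia and 0.760 to 2.87 CPM in microglia. In nonmicroglia the 10 microglia markers summed to 382 to 1011 CPM per library, against 26508 to 55504 CPM in microglia. The 14 markers of resting astrocytes summed to 6628 to 16351 CPM in nonmicroglia and still to 1419 to 4674 CPM in microglia, and none was at 0 in any diet and week. Nonmicroglia also held markers of ependyma (8967 to 50498 CPM), oligodendrocytes (6625 to 46707 CPM), endothelium, mural cells and neurons, so that its RNA is a mixture. Trem2 in microglia stood at 109 to 250 CPM in knockouts, 308 to 987 in heterozygotes and 418 to 989 in wild types; the labels do not give the deleted part, so the 3' tags may lie outside it.

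Most members were low. Over the 37 nonmicroglia libraries Gfap had a median of 8.55 CPM (0.549 to 35.7), which rested on 1 to 123 counts, and Vim a median of 111 CPM (14.3 to 182). Serpina3n had a median of 18.3 CPM (0 to 108), Cd44 11.3 CPM (0 to 42.2), Osmr 7.14 CPM (0 to 30.3) and S1pr3 5.16 CPM (0 to 18.5). Timp1 and Steap4 had medians of 0. Their counts were 0 in 25 and 29 of 37 libraries, and Timp1 reached 9.99 CPM and Steap4 11.4 CPM. Osmr and S1pr3 were at 0 in 10 libraries each, Serpina3n in 2, Cd44 in 1 and neither Gfap nor Vim in any. A 3' tag count depends little on transcript length, but primers and 3' ends differ between genes, and levels were not compared between genes.

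The sorted fractions separated the members into 3 patterns. Gfap, Vim, Serpina3n, Osmr and S1pr3 were higher in nonmicroglia than in microglia on both diets, Cd44 was present in both without a call, and Timp1 and Steap4 were at 0 in most libraries of both. With edgeR on all 74 libraries, 5 of 8 members were called higher in nonmicroglia on cuprizone and 5 of 8 on control chow (adjusted p under 0.05). Of the 18408 genes tested, 49.1% were called in either direction on cuprizone and 47.8% on control chow, and 29.8% and 27.6% were called higher, so that being called is common in this comparison.

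Gfap averaged 13.04 ± 11.7 CPM in nonmicroglia and 0.543 ± 1.17 CPM in microglia on cuprizone (SD, n = 19 each), and 9.38 ± 7.76 CPM in nonmicroglia and 0.715 ± 1.26 CPM in microglia on control chow (n = 18 each). Its level was higher in nonmicroglia in 35 of 37 mice, and the fractions overlapped only at the low end. Serpina3n averaged 40.5 ± 28.3 CPM in nonmicroglia and 1.21 ± 2.27 CPM in microglia on cuprizone, and 13.2 ± 13.7 CPM in nonmicroglia and 0.837 ± 1.62 CPM in microglia on control chow. On control chow the difference was 3.86 ± 0.62 on the log2 scale (SE, edgeR adjusted p = 5.41e-08), and it was positive in 33 of 37 mice over both diets. Vim averaged 117 ± 35.99 CPM in nonmicroglia and 48.9 ± 40.8 CPM in microglia on cuprizone, a difference of 1.28 ± 0.32 (adjusted p = 0.000505). On control chow it averaged 106 ± 42.7 CPM in nonmicroglia and 19.9 ± 15.4 CPM in microglia, a difference of 2.53 ± 0.36 (adjusted p = 2.64e-08).

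Osmr averaged 11.5 ± 9.16 CPM in nonmicroglia and 0.0430 ± 0.129 CPM in microglia on cuprizone, and 7.66 ± 9.44 CPM in nonmicroglia and 0.131 ± 0.255 CPM in microglia on control chow. Its 37 microglia libraries held 6 counts in all. S1pr3 averaged 4.59 ± 3.44 CPM in nonmicroglia and 0.102 ± 0.217 CPM in microglia on cuprizone, and 5.30 ± 5.77 CPM in nonmicroglia and 0.0734 ± 0.214 CPM in microglia on control chow. For Gfap, Osmr and S1pr3, and for Serpina3n on cuprizone, a microglia group was at 0 counts in every library, so no fitted fold change is given; their adjusted p-values in edgeR were 7.51e-14 to 1.77e-05.

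Cd44 ran the other way and passed the test only under some settings. It averaged 19.9 ± 10.6 CPM in nonmicroglia and 35.8 ± 23.5 CPM in microglia on cuprizone (log2 difference -0.94 ± 0.44, edgeR adjusted p = 0.0664), and 9.92 ± 11.9 CPM in nonmicroglia and 13.9 ± 11.9 CPM in microglia on control chow (-0.93 ± 0.47, adjusted p = 0.0981). It was lower in nonmicroglia in 26 of 37 mice. The cuprizone difference was called in 3 of 7 other settings, at -1.01 with no sex term (adjusted p = 0.0491), -1.09 with limma voom (0.0231) and -1.01 with additive terms (0.0386), and at -1.07 without mouse 2474 (0.0382). Timp1 had 79 counts in nonmicroglia and 0 in microglia over 19 cuprizone-fed mice, and 27 counts in nonmicroglia and 1 in microglia over 18 controls. Steap4 had 30 counts in nonmicroglia and 0 in microglia on cuprizone, and 44 in nonmicroglia and 9 in microglia on control chow. Neither had a usable fit with 24 groups. A model with genotype and week as additive terms, added after the data were seen, had one for both and called all 8 members on cuprizone (Cd44 lower) and 7 of 8 on control chow (all but Cd44).

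**Figure D1:**
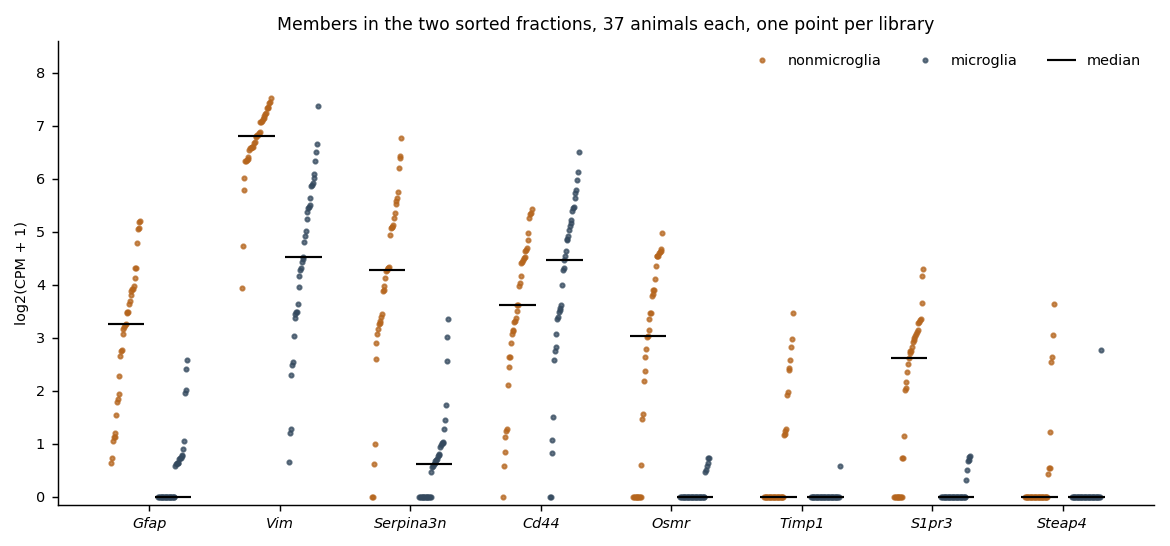
Level of each member as log2(CPM + 1) in the 37 nonmicroglia libraries and the 37 microglia libraries, with a point per library and a black bar at the median. Gfap, Osmr and S1pr3 lie near 0 in microglia, Vim and Cd44 are present in both fractions, and Timp1 and Steap4 are at 0 in most libraries of either.

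The diet comparison asked whether the 8 genes were raised in the nonmicroglia fraction of cuprizone-fed mice. Serpina3n stood higher on cuprizone at both times and Cd44 at 5 weeks, in levels that overlapped with those of controls, and neither passed the test over all genes. Gfap and Vim, the filament genes, differed little from controls relative to their spread when the genotypes were averaged. With edgeR, the 3 genotypes averaged with equal weight, 0 of the 7 members with a usable fit were called at 5 weeks and 0 of 6 at 12 weeks. Steap4 had no usable fit at either time and Timp1 had none at 12 weeks. Of the 16915 genes tested, 0.443% were called at 5 weeks and 0.497% at 12 weeks. Neither DESeq2 nor limma voom called a member (0 at each time). With p under 0.05 before adjustment there were 3 members at 5 weeks (Serpina3n, Cd44 and Timp1) and 1 at 12 weeks (Serpina3n), against 7.58% and 8.41% of all genes. Over the 6 members with counts in every genotype and diet, the median log2 difference was 0.73 at 5 weeks and 0.42 at 12 weeks, against 0.05 and 0.04 over all genes tested. In a bulk fraction, fewer cells of a type and less RNA per cell cannot be told apart.

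Serpina3n at 12 weeks had 16.4 CPM at the lowest, 42.5 at the median and 108 at the highest in 10 cuprizone-fed mice, against 0, 8.54 and 53.0 CPM in 9 controls. All 10 cuprizone libraries lay above the control median, but the groups overlapped through the wild-type controls. The mean was 49.2 ± 26.8 CPM on cuprizone and 14.8 ± 16.5 CPM on control chow, and the log2 difference was 1.83 ± 0.62 (edgeR adjusted p = 0.273). At 5 weeks it had 7.99, 18.9 and 84.9 CPM in 9 cuprizone-fed mice at the lowest, median and highest, against 0, 9.98 and 33.0 CPM in 9 controls. The log2 difference was 1.52 ± 0.61 (adjusted p = 0.474). An exact permutation test of diet within genotype on log2(CPM + 1), two-sided and added after the data were seen, gave p = 0.03975 at 5 weeks and p = 0.00193 at 12 weeks; these are not adjusted for the 16 tests of this kind.

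Single libraries weighed on the Serpina3n values. At 5 weeks the difference was 2.72 with an adjusted p of 0.0165 without the heterozygous control 1745, and 0.81 with an adjusted p of 0.886 without the wild-type cuprizone mouse 2474. With no filter on low counts it passed at 12 weeks (edgeR adjusted p = 0.0233) and not at 5 weeks (adjusted p = 0.118). Of the Serpina3 paralogs, which have similar sequences, Serpina3g had 44 counts in 4 libraries and Serpina3m had 12 in 1 library, against 2010 counts of Serpina3n in 35 of 37 libraries; the other 8 paralogs had 0.

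The markers of resting astrocytes ran lower on cuprizone while Serpina3n ran higher. Their sum was 7717 to 11779 CPM on cuprizone and 10566 to 16351 CPM on control chow at 5 weeks, and 6628 to 10993 CPM on cuprizone and 8555 to 15111 CPM on control chow at 12 weeks. Per 1000 CPM of these markers, Serpina3n stood at 3.06 ± 2.61 CPM on cuprizone and 0.945 ± 0.906 CPM on control chow at 5 weeks (SD, n = 9 each), and at 6.03 ± 3.64 CPM on cuprizone (n = 10) and 1.34 ± 1.42 CPM on control chow (n = 9) at 12 weeks. With the summed marker level as a covariate in edgeR, its log2 difference was 0.98 at 5 weeks (adjusted p = 0.986) and 1.18 at 12 weeks (adjusted p = 0.812). The marker sum itself differed with diet, so division by it widens the gap and the covariate is not independent of diet. The part of the marker level in the diet difference was not tested further.

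Cd44 at 5 weeks had 11.3 CPM at the lowest, 22.1 at the median and 42.2 at the highest in 9 cuprizone-fed mice, against 0, 4.46 and 40.1 CPM in 9 controls. Only the knockout control 1104 among the 9 controls lay above the lowest cuprizone library. The log2 difference was 1.90 ± 0.67 (edgeR adjusted p = 0.318), and the exact permutation test gave p = 0.0025. At 12 weeks it had 0.490, 18.6 and 27.7 CPM in 10 cuprizone-fed mice, against 1.19, 6.51 and 37.4 CPM in 9 controls, with a log2 difference of 0.65 ± 0.66 (adjusted p = 0.925). Microglia express Cd44 too, and the microglia markers in nonmicroglia summed to 400.0 to 784 CPM on cuprizone and 453 to 793 CPM on control chow at 5 weeks, with no marker of the 10 at 0 and none called. The part of microglia RNA in the Cd44 difference was not tested.

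Gfap was detected in each nonmicroglia library, and its diet difference averaged over genotypes was smaller than its standard error at both times. At 5 weeks it had 1.18, 14.1 and 35.7 CPM at the lowest, median and highest on cuprizone, against 1.32, 10.2 and 32.7 CPM on control chow, a log2 difference of 0.61 ± 0.72 (edgeR adjusted p = 1). At 12 weeks it had 0.549, 5.60 and 32.0 CPM on cuprizone, against 1.09, 8.19 and 16.4 CPM on control chow, with a log2 difference of -0.13 ± 0.72 (adjusted p = 1). With all genotypes together the diets overlapped at both times, and at 12 weeks 4 of 10 cuprizone libraries lay outside the control range, on either side of it. By genotype the sign of the difference varied. The log2 difference at 5 weeks was -0.70 ± 1.25 in wild types, 1.75 ± 1.27 in heterozygotes and 0.80 ± 1.26 in knockouts. At 12 weeks it was -0.88 ± 1.41, -0.94 ± 1.13 and 1.43 ± 1.28 in the same order, and none was called. Vim was the best measured member and gave the narrowest limits: its log2 difference was 0.12 ± 0.25 at 5 weeks (109 ± 33.0 CPM on cuprizone and 99.96 ± 37.8 on control chow) and 0.20 ± 0.26 at 12 weeks (125 ± 38.7 CPM on cuprizone and 113 ± 48.4 on control chow), with adjusted p = 1 and 0.991 in edgeR. Endothelial, mural and ependymal cells make Vim as well, so its level in this mixture is not that of astrocytes alone.

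The receptors Osmr and S1pr3 varied from 0 to well above their floor inside most groups. Osmr had 0, 13.9 and 30.3 CPM at the lowest, median and highest on cuprizone, against 0, 9.21 and 23.6 CPM on control chow at 5 weeks. At 12 weeks it had 0, 8.92 and 23.97 CPM on cuprizone, against 0, 0 and 24.6 CPM on control chow. Libraries with at least 3 counts numbered 8 of 10 on cuprizone and 4 of 9 on control chow at 12 weeks, and the log2 difference was 0.89 ± 1.04 (edgeR adjusted p = 0.971; 0.85 ± 0.99 and adjusted p = 1 at 5 weeks). S1pr3 differed by 0.48 ± 1.11 at 5 weeks and by -0.44 ± 1.12 at 12 weeks (adjusted p = 1 at both times). Single mice moved these values: without 1 mouse Osmr ranged over 0.22 (without 2474) to 1.79 (without 1745) at 5 weeks and 0.37 (without 9145) to 3.04 (without 944) at 12 weeks, and S1pr3 over 0.23 (without 1745) to 2.08 (without 4352) at 5 weeks. With the astrocyte marker covariate Osmr differed by 1.94 and 2.49 and S1pr3 by 1.45 at 5 weeks. None of these values was called.

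Timp1 and Steap4 were too sparse for a fold change, since at least 1 genotype and diet group had no count. At 5 weeks Timp1 had at least 3 counts in 6 of 9 cuprizone libraries, with 58 counts in all, against 2 of 9 control libraries with 11 counts. The highest were 9.99 CPM on cuprizone and 2.76 CPM on control chow. The exact permutation test gave p = 0.034, and edgeR an adjusted p of 0.627. At 12 weeks Timp1 had at least 3 counts in 2 of 10 cuprizone libraries and 1 of 9 control libraries (exact permutation p = 0.65). Steap4 had at least 3 counts in 1 library of each diet at each time; at 5 weeks these held 8 counts on cuprizone and 33 on control chow.

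**Figure D2:**
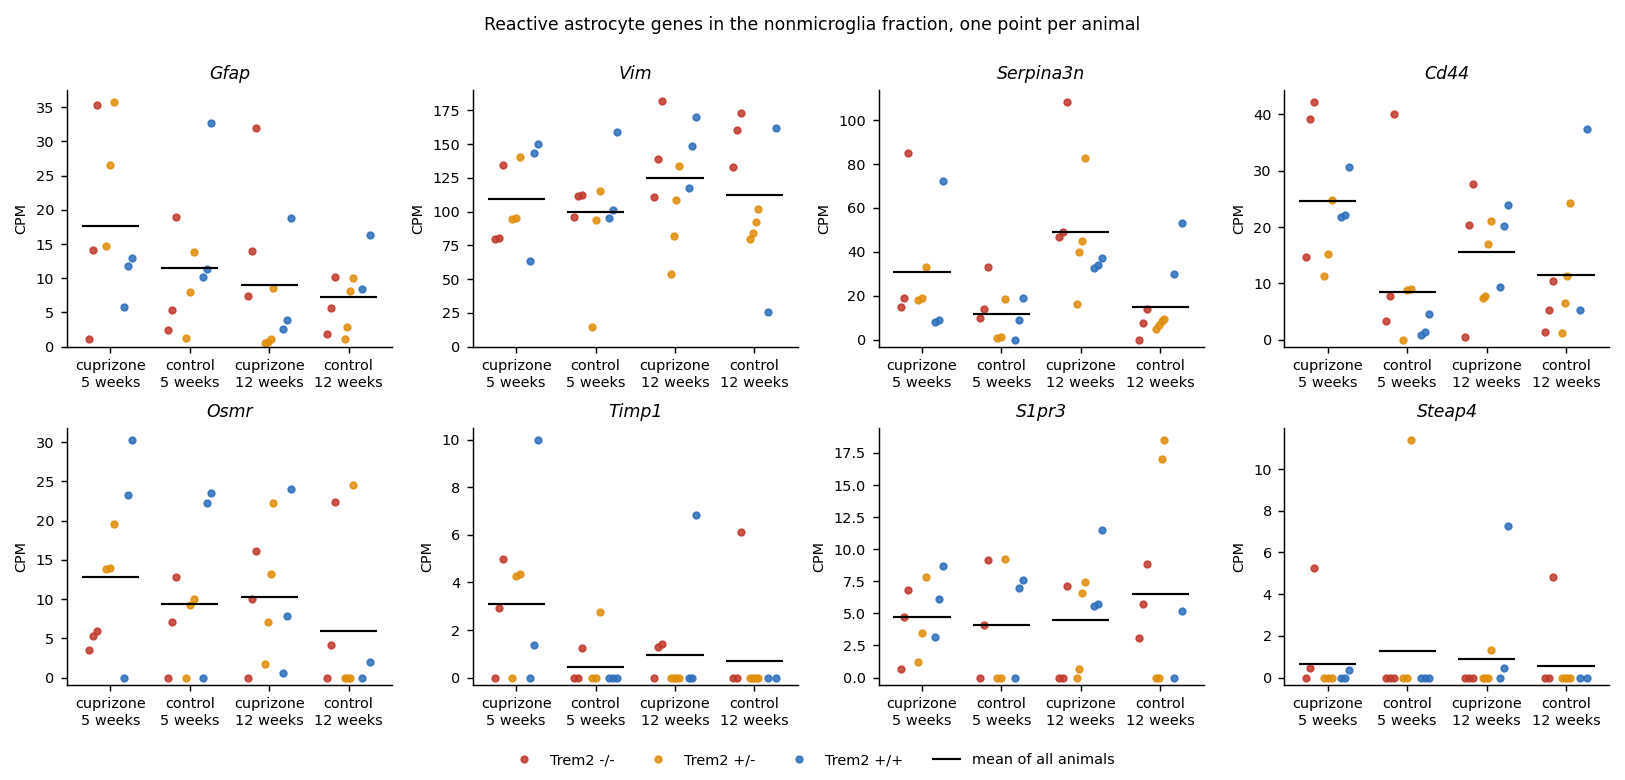
CPM of each member in the 37 nonmicroglia libraries by diet and week, with a point per mouse, colour for Trem2 genotype and a black bar at the mean of the 9 or 10 mice. Serpina3n at 12 weeks lies at 16.4 to 108 CPM on cuprizone and 0 to 53.0 CPM on control chow, and the diets also overlap for Gfap and Vim at both times.

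**Figure D3:**
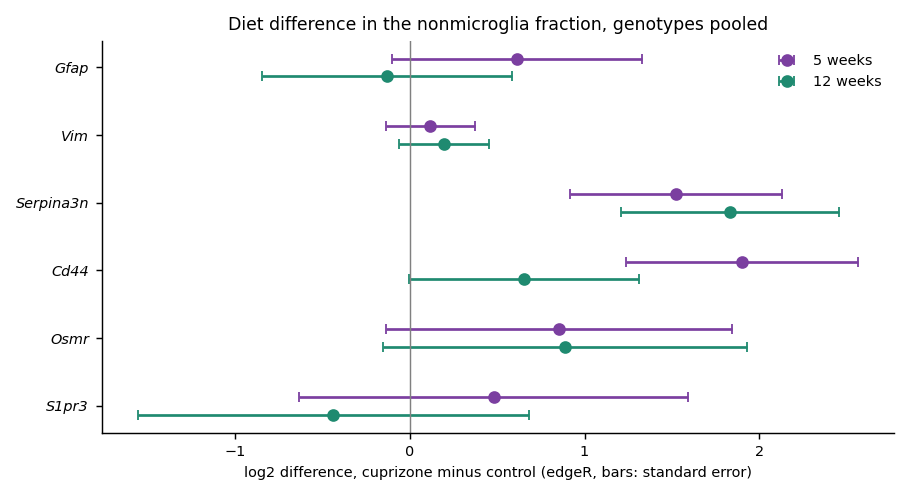
Log2 difference between cuprizone and control chow in nonmicroglia, genotypes averaged, for the 6 members with counts in every genotype and diet. Bars are approximate standard errors worked out from the edgeR test. Serpina3n (1.52 at 5 weeks and 1.83 at 12 weeks) and Cd44 at 5 weeks (1.90) lie farthest from 0, and no member passed the adjusted test.

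By genotype at 12 weeks, Serpina3n levels did not overlap between the diets in knockouts and heterozygotes, and they did in wild types; no member was called within a genotype. Diet called 0.0355% of genes in knockouts, 0.142% in heterozygotes and 0.0828% in wild types at 12 weeks, and 0.0296%, 0.0591% and 0.0414% at 5 weeks. The knockouts had 46.6, 49.0 and 108 CPM on cuprizone, against 0, 7.44 and 13.8 CPM on control chow, and these groups did not overlap. The heterozygotes had 16.4, 40.1, 44.8 and 82.7 CPM on cuprizone, against 5.04, 6.51, 8.54 and 9.50 CPM on control chow, again without overlap. The wild types had 32.7, 33.8 and 37.3 CPM on cuprizone, inside the 29.7 and 53.0 CPM of the 2 controls. The log2 difference was 3.17 ± 1.10 in knockouts (edgeR adjusted p = 0.909), 2.66 ± 0.95 in heterozygotes (adjusted p = 0.461) and -0.34 ± 1.14 in wild types (adjusted p = 1). The interaction of diet and knockout, which is the test of that difference, was 3.51 ± 1.55 (adjusted p = 0.881). On cuprizone itself, knockouts and wild types differed by 0.996 ± 1.01 (adjusted p = 1), and the wild types on control chow were only 2 mice.

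At 5 weeks Cd44 did not overlap between the diets in wild types and heterozygotes, and it did in knockouts. Wild types had 21.8, 22.1 and 30.6 CPM on cuprizone, against 0.797, 1.43 and 4.46 CPM on control chow, with a log2 difference of 3.47 ± 1.25 (edgeR adjusted p = 0.773). Heterozygotes had 11.3, 15.3 and 24.7 CPM on cuprizone, against 0, 8.88 and 8.97 CPM on control chow, with a difference of 1.29 ± 1.13 (adjusted p = 1). Knockouts had 14.7, 39.3 and 42.2 CPM on cuprizone, against 3.33, 7.82 and 40.1 CPM on control chow, with a difference of 0.95 ± 1.11. The interaction of diet and knockout for Cd44 was -2.52 ± 1.61 at 5 weeks (adjusted p = 1). Lack of overlap within a genotype was not limited to Serpina3n and Cd44. In heterozygotes at 5 weeks Gfap had 14.65 to 35.7 CPM on cuprizone, against 1.32 to 13.8 CPM on control chow. Osmr in the same mice had 13.9 to 19.5 CPM on cuprizone, against 0 to 10.01 CPM on control chow. In wild types at 12 weeks S1pr3 had 5.56 to 11.5 CPM on cuprizone, against 0 and 5.16 CPM on control chow. None of these differences was called. Gfap at 12 weeks had 7.35, 14.1 and 32.0 CPM in knockouts on cuprizone, against 2.60, 3.85 and 18.9 CPM in wild types on cuprizone; these overlapped, and the difference was 1.17 ± 1.25 (adjusted p = 1).

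No member was called by edgeR in any comparison by genotype in nonmicroglia. Knockout or heterozygote against wild type on cuprizone, and the interaction of diet and knockout, called 0% of genes at either time, with 414 to 1041 genes at an unadjusted p under 0.05. Among these genes there were 0 members, save for Serpina3n and Steap4 in the interaction at 12 weeks. Neither DESeq2 nor limma voom called a member in any of these genotype comparisons.

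No difference between the responses at 12 and 5 weeks was detectable for the 6 members with a usable fit. The diet difference at 12 weeks minus that at 5 weeks was 0.31 ± 0.85 (log2, SE) for Serpina3n and -1.25 ± 0.92 for Cd44, with adjusted p = 1 for both in edgeR. This comparison called 0.00591% of genes and 0 members, and it gave 0 members with p under 0.05 before adjustment; the DESeq2 and limma voom counts of members were 0 too. Between cuprizone-fed mice at 12 and 5 weeks Gfap differed by -1.16 ± 0.71 (adjusted p = 0.606), with means of 8.96 ± 10.1 CPM at 12 weeks and 17.6 ± 12.3 CPM at 5 weeks. That comparison called 0.964% of genes, that of the controls at 12 and 5 weeks 0.236%, and neither a member. These comparisons share samples with the diet comparisons. The make-up of nonmicroglia also differed between the times. Neuronal markers averaged 787 ± 374 CPM at 12 weeks and 3341 ± 2171 at 5 weeks on cuprizone, and 850 ± 336 and 2589 ± 1045 on control chow (SD). Mature oligodendrocyte markers went the other way, with 22804 ± 6150 and 12927 ± 5006 CPM on cuprizone. The part of this in the week differences was not tested.

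In microglia only Vim, Serpina3n and Cd44 passed the filter on low counts, and Vim and Cd44 stood higher on cuprizone. At 12 weeks Vim had 1.29, 53.1 and 164 CPM at the lowest, median and highest in 10 cuprizone-fed mice, against 1.43, 18.9 and 63.4 CPM in 9 controls. The log2 difference was 1.94 ± 0.58 (edgeR adjusted p = 0.0592). Cd44 had 14.9, 45.7 and 89.9 CPM on cuprizone, against 0, 10.5 and 34.6 CPM on control chow, with a log2 difference of 2.04 ± 0.69 (adjusted p = 0.105). For both genes the diets overlapped. Serpina3n, at 0 in 15 of 37 microglia libraries, differed by -0.95 ± 1.25 (adjusted p = 0.865). None of the 3 passed in edgeR, where 2.95% of 14087 genes were called, and limma voom called 0 of them; DESeq2 called Vim and Cd44 (adjusted p = 0.00991 and 0.0235), and edgeR did with no filter on low counts (0.00167 and 0.00457). At 5 weeks, where 1.6% of genes were called, Vim differed by 0.90 ± 0.53 (adjusted p = 0.579) and Cd44 by 0.58 ± 0.66 (adjusted p = 0.883), and 0 members had an unadjusted p under 0.05.

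In microglia at 12 weeks the cuprizone-fed wild types had the highest Vim levels, and for Cd44 a cuprizone-fed knockout lay within their range. Vim had 67.0, 79.9 and 164 CPM in wild types on cuprizone, against 1.43 and 4.79 CPM in the 2 wild types on control chow. Heterozygotes had 42.3, 48.5, 57.6 and 59.5 CPM on cuprizone, against 4.62, 18.9, 21.3 and 31.2 CPM on control chow, and neither they nor the wild types overlapped between the diets. No diet comparison within a genotype was fitted in microglia, so this lack of overlap comes without a test. Knockouts had 1.29, 18.3 and 40.3 CPM on cuprizone, against 14.6, 26.9 and 63.4 CPM on control chow, so that they overlapped. Cd44 had 54.2, 69.1 and 89.9 CPM in wild types on cuprizone, against 5.73 and 10.5 CPM on control chow, again without overlap and without a test. Knockouts on cuprizone had 14.9, 29.3 and 61.6 CPM of Cd44, which overlapped with the wild types on cuprizone. Heterozygotes had 21.1, 36.04, 43.1 and 48.4 CPM of Cd44 on cuprizone, against 1.83, 4.98, 18.8 and 33.3 CPM on control chow, with overlap. Between knockouts and wild types on cuprizone at 12 weeks Vim differed by -2.40 ± 0.95 (edgeR adjusted p = 0.392) and Cd44 by -0.93 ± 1.11 (adjusted p = 0.831). That comparison called 0.44% of genes and the same one at 5 weeks 0.0781%, neither with a member. In microglia the astrocyte markers summed to 1419 to 2841 CPM on cuprizone and 1968 to 3762 CPM on control chow at 12 weeks, and the endothelial ones to 94.5 to 512 CPM on cuprizone and 53.0 to 199 CPM on control chow. The oligodendrocyte precursor markers summed to 40.2 ± 18.8 CPM on cuprizone and 11.6 ± 8.10 CPM on control chow (SD, n = 10 and 9). The RNA integrity number, known for 3 libraries of each diet at 12 weeks, was 7.3 to 8.1 on cuprizone and 8.1 to 9.6 on control chow. The part of these in the Vim and Cd44 values was not tested.

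**Figure D4:**
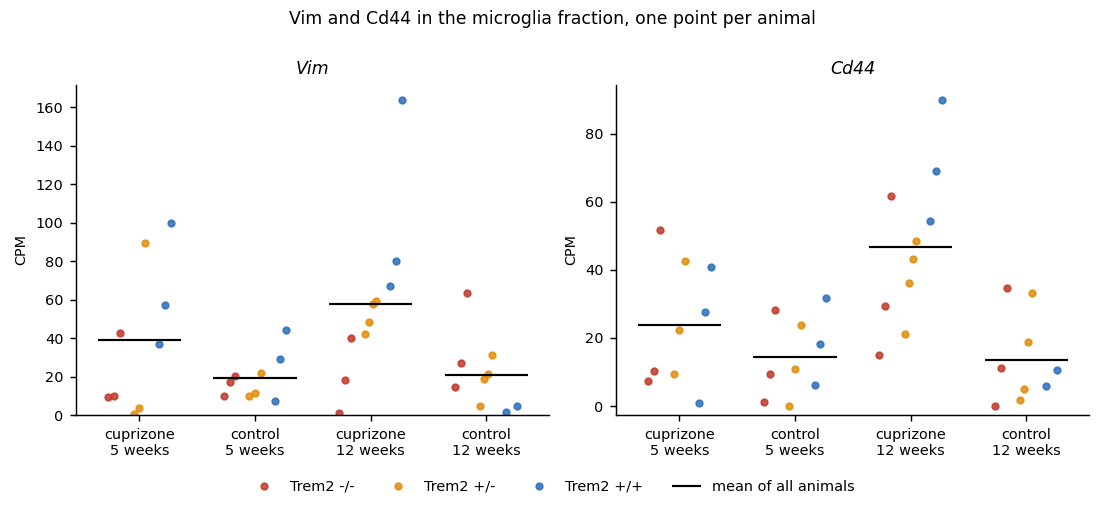
CPM of Vim and Cd44 in the 37 microglia libraries by diet and week, with a point per mouse, colour for Trem2 genotype and a black bar at the mean. At 12 weeks the cuprizone-fed wild types lie at 67.0 to 164 CPM for Vim, above the 2 wild-type controls at 1.43 and 4.79 CPM.

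The pathways around the members were followed in lists drawn up from general knowledge with earlier results of these data known. In the nonmicroglia diet comparisons the list of metalloproteinases and other TIMPs had called genes at 5 weeks: of its 8 genes that passed the filter 1 rose and 1 fell. Adamts1, a secreted metalloproteinase that cuts matrix proteoglycans, rose at both times. It stood at 158 ± 30.7 CPM on cuprizone and 77.5 ± 31.7 CPM on control chow at 5 weeks (n = 9 each; log2 difference 0.998 ± 0.22, edgeR adjusted p = 0.00797). At 12 weeks it stood at 246 ± 68.3 CPM on cuprizone (n = 10) and 86.6 ± 31.9 CPM on control chow (n = 9; 1.55 ± 0.23, adjusted p = 2.8e-06). Timp3, an inhibitor of the same enzyme family as Timp1, fell at 5 weeks to 382 ± 52.4 CPM on cuprizone, against 561 ± 80.7 on control chow (-0.59 ± 0.15, adjusted p = 0.0453).

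Of the 6 filament partners, Nes, which encodes nestin, fell at 12 weeks to 25.6 ± 17.6 CPM on cuprizone, against 54.0 ± 23.1 on control chow (-1.39 ± 0.33, adjusted p = 0.0208). The other 5 were not called, and none was at 5 weeks. The 14 resting astrocyte markers had medians of -0.50 at 5 weeks and -0.51 at 12 weeks, with 0 called at 5 weeks and 2 at 12 weeks, both lower. These were Slc1a2, the main glutamate transporter of astrocytes (1293 ± 283 CPM on cuprizone and 2128 ± 741 on control chow; -0.72 ± 0.15, adjusted p = 0.00412), and Sox9, an astrocyte transcription factor (315 ± 55.2 CPM on cuprizone and 483 ± 146 on control chow; -0.64 ± 0.16, adjusted p = 0.0351). At an unadjusted p under 0.05, 11 of the 14 were lower at 5 weeks and 10 at 12 weeks. None of the markers of microglia, oligodendrocytes, their precursors, endothelium, mural cells and fibroblasts, neurons, ependyma or blood leukocytes was called at either time; at an unadjusted p under 0.05 the markers of mature oligodendrocytes had 3 of 9 lower at 5 weeks and 2 of 9 at 12 weeks. The mural and fibroblast markers had 3 of 9 lower at 5 weeks and 1 of 9 at 12 weeks, the endothelial markers 1 of 8 lower, the neuronal markers 1 of 8 higher and the precursor markers 3 of 6 higher at 12 weeks.

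The other lists had no called gene at either time in edgeR; at an unadjusted p under 0.05 each held at most 1 gene that stood higher and 4 that stood lower. Of the other pan-reactive astrocyte genes 4 of 5 passed the filter. Cxcl10, a chemokine, had the smallest p at 5 weeks, with 11.2 ± 9.03 CPM on cuprizone and 2.16 ± 3.71 on control chow (2.93 ± 1.08, adjusted p = 0.369), and at 12 weeks it was Hspb1, a small heat shock protein gene (-0.38 ± 0.46, adjusted p = 0.975). The lists of reactive genes named for neuroinflammation (10 genes, median log2 difference 0.31 at 5 weeks and 0.19 at 12 weeks over the 9 with a fit) and for ischemia (9 of 12 genes, 0.28 and -0.25 over the 7 with a fit) likewise had 0 called, and 0 at an unadjusted p under 0.05. Their smallest p belonged to Amigo2 at 5 weeks (-1.43 ± 0.92, adjusted p = 0.831) and Gbp2 at 12 weeks (1.17 ± 0.79, adjusted p = 0.763) in the first list, and to S100a10 at 5 weeks (-0.58 ± 0.32, adjusted p = 0.724) and Sphk1 at 12 weeks (1.48 ± 1.05, adjusted p = 0.784) in the second. Of the IL-6 family and JAK-STAT3 genes, which include the partners of Osmr, 15 of 16 passed the filter and had medians of -0.04 and 0.10; Cntfr, a receptor of the family, differed by -0.43 ± 0.22 at 12 weeks (adjusted p = 0.601). Tnc, a matrix protein in the list of Cd44 ligands and matrix, differed by 2.19 ± 0.91 at 12 weeks (adjusted p = 0.429) and Hapln1, a hyaluronan link protein gene, by 1.02 ± 1.11 at 5 weeks (adjusted p = 1). S1pr1, the family member most typical of endothelium and astrocytes, differed by -0.51 ± 0.17 at 5 weeks and -0.57 ± 0.17 at 12 weeks (adjusted p = 0.284 and 0.153). The sphingosine 1-phosphate genes had medians of -0.33 over the 7 with a fit at 5 weeks and -0.60 over 8 at 12 weeks. Of the 3 other Steap genes Steap1 differed by -0.66 ± 0.36 at 5 weeks (adjusted p = 0.725) and Steap2 by 0.45 ± 0.53 at 12 weeks (adjusted p = 0.970), and no Serpina3 paralog passed the filter.

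The members did not vary together from mouse to mouse in a way that passed the test. After the mean of each group was taken off, the 28 pairs of members had Pearson r of -0.28 to 0.55 over the 37 nonmicroglia libraries (median 0.16, positive in 21). None passed after adjustment over the 28 pairs, by Pearson or by Spearman. Serpina3n and Osmr had the highest value (r = 0.55, permutation p = 0.00878, adjusted 0.246; rho = 0.51, permutation p = 0.0112, adjusted 0.256). Without the 2 mice farthest from the median of Serpina3n, r was 0.48. Over the 12 group means, the genes whose pattern was most like that of a member, among 9659 with an average log2 CPM of at least 3, were Paxx, Gdap1 and Gm9892 for Serpina3n (r = 0.90, 0.90 and 0.89), Cebpzos, Gdap1 and Sorcs3 for Cd44 (0.89, 0.88 and 0.88) and Wdr36, Gm17066 and Pnmal2 for Gfap (0.87, 0.87 and 0.86). For Vim they were Patz1, Gramd1b and Ackr3 (0.90, 0.86 and 0.86). The first in order was Bend6 for Osmr (0.89), Chuk for Timp1 (0.86), Cnot1 for S1pr3 (0.85) and Ebpl for Steap4 (0.82). These are the highest of many values over 12 points that share libraries, and are given as a description.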

How the data were processed

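The authors deposited a table of raw gene counts for 74 libraries, with no normalization. Per the labels' protocols, libraries were made with a 3' tag kit for low input; per the submitters' processing notes, FastQC 0.11.5, STAR, MultiQC and R 3.4.3 were used with GRCm38.p6. The sources used here name no counter or annotation and do not say whether strand or molecular identifiers were used. Groups came from the labels' genotype, diet and week.

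From the counts, CPM was computed per library, and edgeR 4.0.16 (R 4.3.3; TMM scaling, filterByExpr with a minimum count of 10, quasi-likelihood test, genotype by diet by week groups plus sex, Benjamini-Hochberg over all genes tested) was fitted to nonmicroglia, to microglia and to both, for 23 comparisons. The edgeR steps were also run on simulated counts with known changes. Those counts carried only the average spread of genes at their level, so they do not give the power for single, more variable members. DESeq2 1.42.0, limma 3.58.1, other scalings, filters, covariates and leaving out each mouse were the alternatives. Contrasts for which a group had no count are given without a fold. The standard errors of log2 differences are approximate, since the edgeR test gives none. They were worked out as the absolute difference divided by the square root of the F statistic of the test. The genes named from each pathway list at each time are the called ones, or the one of smallest p; that of 1 list at 5 weeks is not reported here. The labels name each animal in both fractions, which makes the fractions paired; residuals of the same animal correlated at -0.0455 to 0.146 (median 0.0262). P-values measure the spread between mice, and limits for a count of 0 cover counting error only. Over 2701 pairs of libraries, chi-square divided by its degrees of freedom was at least 8.56, so no library was taken as a repeat. The members and lists were chosen with earlier results of these data known.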

Additional observations from a re-analysis of the deposited data

Results flagged for a closer look

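In 25 groups of 4 mice with a count, 5 had 1 library of at least 3 counts far from the other 3. For values without ties chance gives about 1 such group in 20, a rate that does not hold here: where 3 of 4 libraries are at 0 the fourth stands apart by construction. All were heterozygotes at 12 weeks, the only groups large enough for the comparison. Gfap in nonmicroglia on cuprizone stood at 8.55 CPM in mouse 6296, with the next at 1.17 CPM. Osmr in nonmicroglia on control chow stood at 24.6 CPM in mouse 944, with the others at 0. In microglia, Gfap stood at 3.03 CPM in mouse 2476 on cuprizone, with the others at 0, and at 4.98 CPM in mouse 9463 on control chow, with the next at 0.65 CPM. Steap4 in microglia stood at 5.85 CPM in mouse 943 on control chow, with the others at 0.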

How the results depend on the processing

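Of 316 values of single members under another setting, 298 were counted as unchanged, 8 passed the threshold only there and 10 changed sign. Of 850 values without 1 mouse, these were 806, 6 and 38. Unchanged means the same direction and side of the threshold, but the exact permutation values among the 316 were judged by direction alone. Their unadjusted p was under 0.05 for Serpina3n at both times and for Cd44 at 5 weeks, where edgeR called neither. Members called in nonmicroglia against microglia on cuprizone were 8 with additive terms, against 5. In microglia at 12 weeks, 2 members were called with no filter on low counts and 2 with DESeq2, against 0; in nonmicroglia at 12 weeks, 1 with no filter. Without 1 mouse, the count was 0 to 1 in nonmicroglia at 5 weeks and 0 to 1 in microglia at 12 weeks (Vim without 1748, 8635 or 943; Cd44 without 9467). With the animal as replicate block, the same 5 members were called in the fraction comparison on both diets; Vim differed by 1.72 ± 0.25 on cuprizone. Size-factor scaling moved the median of all genes there by 0.22 on control chow and 0.18 on cuprizone.

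No member whose sign changed was called. In the diet difference at 12 weeks these were Gfap (0.12 with an additive term) and S1pr3 (0.062 with limma, 0.62 with the astrocyte covariate). In the difference between the responses they were Vim (-0.017 with an additive term, -0.00027 with the noncoding covariate) and Osmr (-0.13 with DESeq2, -0.51 with an additive term). Between weeks they were Vim (-0.10 on cuprizone and -0.10 on control chow with the noncoding covariate) and Osmr (0.029 on cuprizone with limma). Without 1 mouse, the ranges that crossed 0 in nonmicroglia were -0.050 to 0.29 for Vim at 5 weeks, and at 12 weeks -0.63 to 0.20 for Gfap, -0.072 to 0.79 for Vim and -2.04 to 0.996 for S1pr3. In the difference between the responses they were -0.20 to 0.67 for Vim, -0.94 to 0.98 for Serpina3n, -1.04 to 2.30 for Osmr and -2.50 to 0.58 for S1pr3. Between control mice at 12 and 5 weeks they were -0.42 to 0.43 for Vim and -1.07 to 2.02 for S1pr3. In microglia they were -0.33 to 1.09 for Vim at 5 weeks and -1.23 to 0.0012 for Serpina3n at 12 weeks. The cause was not tested.

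Counts of called genes over the whole table moved more. Under other settings they were 32 to 148 at 5 weeks (75 as reported) and 37 to 189 at 12 weeks (84), 32 to 453 between cuprizone-fed mice at 12 and 5 weeks (163) and 11 to 221 between controls (40). Within a genotype at 5 weeks they were 5 to 18 in knockouts (5), 7 to 26 in heterozygotes (10) and 6 to 48 in wild types (7), and at 12 weeks 6 to 29 (6), 23 to 122 (24) and 1 to 92 (14; 1 to 130 without 1 mouse). Nonmicroglia comparisons of genotypes on cuprizone gave 0 to 9 (0), the interaction at 12 weeks 0 to 37 without 1 mouse (0), and between knockout and wild-type microglia they were 9 to 45 at 5 weeks (11) and 49 to 218 at 12 weeks (62). In microglia they were 203 to 409 at 5 weeks (226) and 355 to 754 at 12 weeks (415). Timp1, Steap4, S1pr3 and Osmr had the fewest counts in nonmicroglia, and many of their libraries were under 3 counts. Their counts also varied widely inside a group: Osmr in heterozygous controls at 12 weeks had 0 counts in 3 nonmicroglia libraries and 39 in the other. The part of depth in these low counts was not tested.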
